A study of Mus musculus with 11 samples.

Results

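Sprr1a, Gadd45a, Hspb1, Xdh, Slc15a3 and Igfn1 are 6 of the 24243 genes listed in 8 tables of single-nucleus RNA counts from neurons of the mouse trigeminal ganglion, the sensory ganglion of the face. They were chosen by name because their counts were higher in nuclei that hold transcripts of Atf3 and Sema6a, 2 genes that mark damaged sensory neurons, so that difference is described here without a test. All 6 genes were listed in each of the 6 injury tables. The Drop-seq control table listed 5 of them, without Igfn1, and the 10x control table listed 3 of them, Gadd45a, Hspb1 and Xdh.

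Uninjured wildtype C57BL mice (C57BL/6NCrl in the methods) older than 6 weeks gave 1 control library on 10x (10 mice) and 4 control libraries on Drop-seq (16 mice), which share 1 table with no label that ties a nucleus to a library. Wildtype C57BL mice of the same age range were sampled 2, 7 and 21 days (10 mice each) and 75 days (6 mice) after infraorbital nerve transection (IOT), in which superficial branches of the nerve to the whisker pad were cut and not tied. A facial injury library (10 C57BL mice) was made 2 days after shallow cuts to the skin of the cheeks and forehead. The scratch lesion library came from 10 mice of a FVBN/C57BL/129 mix that were double heterozygous for Fos-tTA and a tetO-mCherry-2A-Gnaq transgene encoding constitutively active Gq alpha, and that had been selected for visible lesions of the head and neck, so its strain, transgenes and lesions cannot be told apart. Ganglia of males and females were pooled, and nuclei were enriched with an antibody to NeuN. Each injury condition is therefore 1 library of pooled mice, no test was made between single libraries, and the 95% intervals of levels and shares cover counting error only.

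The 8 tables hold 40359 nuclei and 132982556 unique molecular identifiers (UMIs, 1 for each captured RNA molecule), with 3178 to 8660 nuclei a table and a median of 1747 to 4178.5 UMIs a nucleus. The synaptic gene Snap25 had a UMI in 60.3% to 92.3% of the nuclei of a table. Levels are given as counts per 1e+06 UMIs (CPM) over all UMIs of the nuclei summed. A nucleus was called marked when it held at least 2 UMIs of Atf3 and Sema6a together and unmarked when it held none of either. Marked nuclei were 826 at IOT day 2 (17.9%), 434 at day 7 (10.8%), 366 at day 21 (9.05%), 302 at day 75 (8.31%), 201 after facial injury (2.32%) and 321 with scratch lesions (4.10%), against 112 (2.56%) in the 10x control and 42 (1.32%) in the Drop-seq control. In the 6 injury libraries the median depth of marked nuclei was 2257 to 5700.5 UMIs and that of unmarked nuclei 1689 to 3925 UMIs, and it was higher in marked nuclei in every one.

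Axon damage in a peripheral neuron switches on stress transcription factors, among them Atf3 and Jun, and with them genes for repair, survival and regrowth. Sprr1a encodes a small proline-rich protein of the cornified envelope of skin that is also produced by regenerating sensory neurons, where it promotes axon outgrowth. Gadd45a encodes a stress sensor induced by DNA damage and p53 that acts on cell cycle arrest, DNA repair and MAP kinase signalling. Hspb1 encodes the small heat shock protein HSP27, a chaperone that supports survival of injured sensory neurons and whose mutations in people cause axonal neuropathy. Xdh encodes xanthine dehydrogenase, the molybdenum enzyme that makes uric acid at the end of purine breakdown. Slc15a3 encodes a proton-coupled histidine and peptide transporter of the endolysosome, known mainly from immune cells. Igfn1 encodes a protein of immunoglobulin and fibronectin domains known from skeletal muscle.

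Promoters are shown for the 3 genes with the most UMIs in marked nuclei, because they differ in the short motifs that stress transcription factors are known to bind. The sequences are the 250 bases before the transcription start in RefSeq (GRCm38.p6), read 5′ to 3′ on the strand of the gene, with matched motifs in capitals. Searched on both strands were the AP-1 letters TGANTCA, the cyclic AMP response element TGACGTCA, a pair of heat shock element units as GAANNTTC or TTCNNGAA, and a TATA box as TATAAA.
Sprr1a: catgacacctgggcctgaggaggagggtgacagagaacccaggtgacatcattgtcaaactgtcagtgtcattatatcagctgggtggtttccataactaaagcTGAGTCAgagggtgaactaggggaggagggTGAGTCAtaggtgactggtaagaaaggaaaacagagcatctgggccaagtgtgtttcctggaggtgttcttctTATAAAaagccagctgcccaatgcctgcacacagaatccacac
Hspb1: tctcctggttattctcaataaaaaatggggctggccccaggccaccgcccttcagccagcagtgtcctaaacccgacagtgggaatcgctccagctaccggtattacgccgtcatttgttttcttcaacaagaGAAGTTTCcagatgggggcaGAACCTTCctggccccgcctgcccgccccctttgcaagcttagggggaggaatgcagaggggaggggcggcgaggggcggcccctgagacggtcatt
Gadd45a: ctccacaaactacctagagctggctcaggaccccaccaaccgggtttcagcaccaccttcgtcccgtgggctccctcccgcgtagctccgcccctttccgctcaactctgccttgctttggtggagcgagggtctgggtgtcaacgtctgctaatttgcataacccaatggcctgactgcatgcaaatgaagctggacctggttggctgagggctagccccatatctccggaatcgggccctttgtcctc
The Sprr1a window (chr3:92485882-92486131, minus strand) held the AP-1 letters TGAGTCA 2 times, beginning 146 and 116 bases before the start, and a TATA box beginning 43 bases before it. The Hspb1 window (chr5:135887669-135887918, plus strand) held 2 heat shock element pairs, GAAGTTTC and GAACCTTC, beginning 117 and 97 bases before the start. The Gadd45a window (chr6:67037408-67037657, minus strand) and the Igfn1 window (chr1:136006343-136006592, minus strand) held none of the letters searched. Of the 32851 RefSeq promoters of this length, 6.75% held TGANTCA, 1.55% TGACGTCA, 12.8% a heat shock element pair and 12.4% TATAAA, so that none of these motifs is rare. A match is a description of the letters and not evidence of binding, and 4 of the 6 genes had a promoter in the RefSeq table.

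Sprr1a lies at chr3:92483952-92485895 (minus strand, mm10, GENCODE vM21 annotation), within the epidermal differentiation gene complex, and has 2 exon regions. Its level in unmarked nuclei was 5.94, 9.39, 3.35 and 3.24 CPM at IOT days 2, 7, 21 and 75, 2.33 CPM after facial injury and 4.45 CPM with scratch lesions. In marked nuclei of the same libraries it was 69.9, 275, 114, 30.3, 122 and 134 CPM. The lowest marked level was thus above the highest unmarked level, and the ratio of marked to unmarked ran from 9.35 at day 75 (95% interval 6.29 to 14) to 52.4 after facial injury (36.2 to 76.9). Sprr1a UMIs were concentrated in a small part of the nuclei: the marked nuclei held 57.1% to 77.3% of them in the IOT libraries, where they held 10.7% to 21.9% of all UMIs. Among nuclei with at least 3 Sprr1a UMIs, 93.1% were marked at day 2 (29 nuclei), 80.0% at day 7 (55 nuclei), 95.2% at day 21 (21 nuclei) and 100% at day 75 (7 nuclei). The share was lower in the minor injury libraries, at 63.2% after facial injury (19 nuclei) and 73.3% with scratch lesions (30 nuclei). In the Drop-seq control Sprr1a had 0 UMIs in 2961 unmarked nuclei, which allows a level of up to 0.431 CPM and a share of up to 0.101% of nuclei with a UMI, a limit on detection and not on the nuclei that express the gene. Its 7 UMIs there were all in 3 of the 42 marked nuclei.

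Gadd45a lies at chr6:67035096-67037457 (minus strand) and overlaps the noncoding gene E230016M11Rik on the other strand, from which its reads cannot be told apart since no source used here gives a strand setting for the counting. Unmarked nuclei held 15.6, 17.2, 20.5 and 11.6 CPM of Gadd45a at IOT days 2, 7, 21 and 75, 20.7 CPM after facial injury and 24.4 CPM with scratch lesions. The uninjured controls were in the same range, with 11.4 CPM in unmarked nuclei of the 10x library and 26.7 CPM in those of the Drop-seq table. Marked nuclei held 90.5, 115, 130, 26.3, 184 and 195 CPM. Day 75 stood apart as the lowest of the 6, with a ratio of 2.27 (95% interval 1.65 to 3.08) against 5.82 to 8.86 in the other 5 libraries. Its marked nuclei also differed in make-up, with Atf3 in 27.8% of them against 49.8% to 69.8% in the other 5. With Atf3 alone as the mark, the ratio was 3.08 (2.12 to 4.35) at day 75 and 5.54 to 7.66 in the others. The part of make-up in the day 75 level was not tested. Gadd45a therefore differed from Sprr1a in having a level of the same order in uninjured and unmarked neurons, and its marked nuclei held 21.8% to 60.3% of its UMIs over the IOT libraries.

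Hspb1 lies at chr5:135887919-135889563 (plus strand) and was detected in neurons of every table. Its level in unmarked nuclei was 123 CPM in the 10x control, 96.0 CPM in the Drop-seq control, 84.8, 106, 138 and 124 CPM at IOT days 2, 7, 21 and 75, 237 CPM after facial injury and 285 CPM with scratch lesions. In marked nuclei the level was 235 and 250 CPM in the controls, 176, 228, 300 and 189 CPM over the IOT days, 429 CPM after facial injury and 650 CPM with scratch lesions. In the injury libraries the ratio ran from 1.52 at day 75 (95% interval 1.36 to 1.69) to 2.28 with scratch lesions (2.12 to 2.46), and in the uninjured controls it was 1.92 (1.62 to 2.26) on 10x and 2.61 (1.90 to 3.50) on Drop-seq, the highest of the 8 tables. The unmarked nuclei of the 2 minor injury libraries held more Hspb1 than the marked nuclei of IOT day 2. In those 2 libraries the summed level of other heat shock and chaperone genes was also higher in unmarked nuclei, 4475 and 3828 CPM against 2153 to 3418 CPM in the IOT libraries and 3100 CPM in the 10x control. The sum covers the 35 of 37 such genes that every 10x library lists. The Drop-seq control, the only table from that platform, had the highest chaperone sum, 7830 CPM, beside its 96.0 CPM of Hspb1. The 2 levels thus did not run in parallel over all tables, and the part of platform in this was not tested. How far a shift between libraries contributes to the Hspb1 level was not tested.

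Xdh, Slc15a3 and Igfn1 were sparse in unmarked nuclei and were found mainly in marked ones. Xdh (chr17:73883895-73950196, minus strand, with the processed pseudogene CT025731.2 inside it on the same strand) was at 0.838 to 2.89 CPM in unmarked and 9.36 to 30.2 CPM in marked nuclei of the 6 injury libraries, highest at day 7 and lowest at day 75 in the marked group. In the 10x control it had 16 UMIs in unmarked nuclei (1.09 CPM) and 0 in 112 marked nuclei, which allows a level of up to 4.47 CPM. Slc15a3 (chr19:10839727-10859362, plus strand, overlapping Tmem132a and AC132402.1 on the other strand) had 1 to 9 UMIs in the unmarked nuclei of an injury library. Its marked nuclei held 56, 19, 25 and 3 UMIs at days 2, 7, 21 and 75 and 8 UMIs in each minor injury library, or 13.4, 15.5, 14.7, 1.34, 10.7 and 6.24 CPM. Igfn1 (chr1:135953578-136006342, minus strand) was highest in marked nuclei at day 7 (38 UMIs, 31.1 CPM) and day 21 (26 UMIs, 15.3 CPM), lower at day 2 (32 UMIs, 7.67 CPM), and had 4, 1 and 3 UMIs in marked nuclei at day 75, after facial injury and with scratch lesions. The Igfn1 ratio was poorly set by these few UMIs, at 3.38 at day 75 (95% counting interval 0.725 to 13.3) and 3.17 after facial injury (0.0714 to 23.6).

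**Figure D1:**
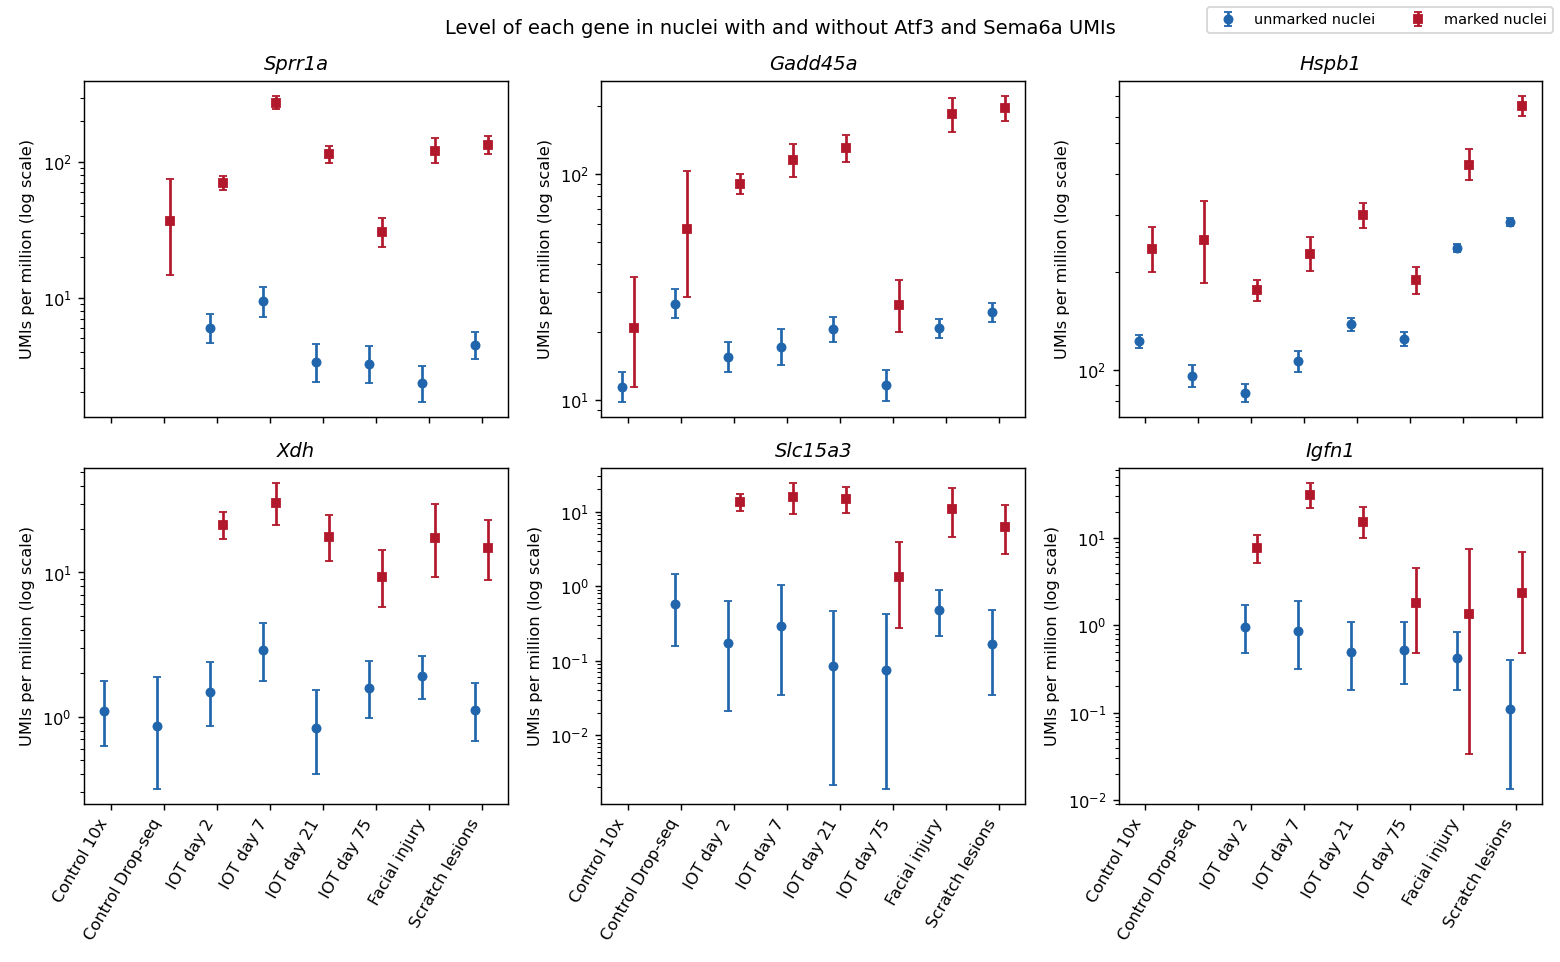
Level of each gene in CPM (log axis) in unmarked nuclei (blue circles) and marked nuclei (red squares) of the 8 tables. Bars are exact Poisson 95% intervals, levels of 0 and genes not listed in a table are not drawn, and in the 6 injury libraries every marked level stands above the unmarked level of the same library.

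Averaged over the 4 IOT libraries, the log2 ratio of marked to unmarked levels was 4.19 ± 0.93 for Sprr1a, 2.28 ± 0.74 for Gadd45a, 0.97 ± 0.24 for Hspb1, 3.55 ± 0.78 for Xdh, 5.90 ± 1.37 for Slc15a3 and 3.71 ± 1.63 for Igfn1 (SD over n = 4 libraries, each of another day). The size depended on the mark: with Atf3 alone the mean for Slc15a3 was 3.69, with Sema6a alone it was 4.25 for Slc15a3 and 2.86 for Sprr1a, and with at least 1 UMI of either it was 3.23 for Sprr1a. A fit of edgeR across all genes tested 14301 genes for the difference in the 4 IOT libraries. The minor injury libraries were in the fit with a term of their own. Of the genes tested, 17.8% passed an adjusted p of 0.05, 9.94% higher and 7.85% lower in marked nuclei. Slc15a3 and Igfn1 were under the count filter of that fit, and nothing is read from the other 4 genes, since this contrast chose them.

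The mean levels were also higher step by step with the number of Atf3 and Sema6a UMIs in a nucleus. Nuclei with 0, 1, 2, 3 and 4 or more such UMIs held on average 4.78, 19.1, 46.5, 88.3 and 202 CPM of Sprr1a over the 6 injury libraries. The same steps gave 18.3, 26.5, 54.7, 90.3 and 204 CPM of Gadd45a, and 163, 218, 251, 302 and 403 CPM of Hspb1. Hspb1 was thus already above the unmarked level in the nuclei with 1 UMI, in 6 of 6 libraries, and so was Gadd45a. At this first step Sprr1a, Xdh and Slc15a3 were above it in 5 of 6 libraries and Igfn1 in 4 of 6. Sprr1a at IOT day 75 was at 1.89 CPM with 1 UMI against 3.24 CPM in unmarked nuclei. Xdh ran from 1.64 to 27.7 CPM, Slc15a3 from 0.211 to 12.7 CPM and Igfn1 from 0.566 to 14 CPM over the same range. The number of such UMIs grows with the depth of a nucleus, and the part of depth in these steps was not tested.

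Split by which transcript was present, nuclei with both Atf3 and Sema6a held the most of all 6 genes on average. For Sprr1a the means over 6 injury libraries were 4.78 CPM with neither, 20.9 CPM with Sema6a only, 54.7 CPM with Atf3 only and 187 CPM with both. Gadd45a followed the same order with 18.3, 28.6, 57.1 and 187 CPM, and so did Hspb1 with 163, 214, 271 and 397 CPM. For Xdh the nuclei with Atf3 only (4.46 CPM) and Sema6a only (4.99 CPM) were close, and those with both held 28.1 CPM (SD 6.36, n = 6 libraries). Sema6a UMIs were found in 12.3% of nuclei in the uninjured 10x control and Atf3 UMIs in 0.893%, so Sema6a alone is the looser mark.

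**Figure D2:**
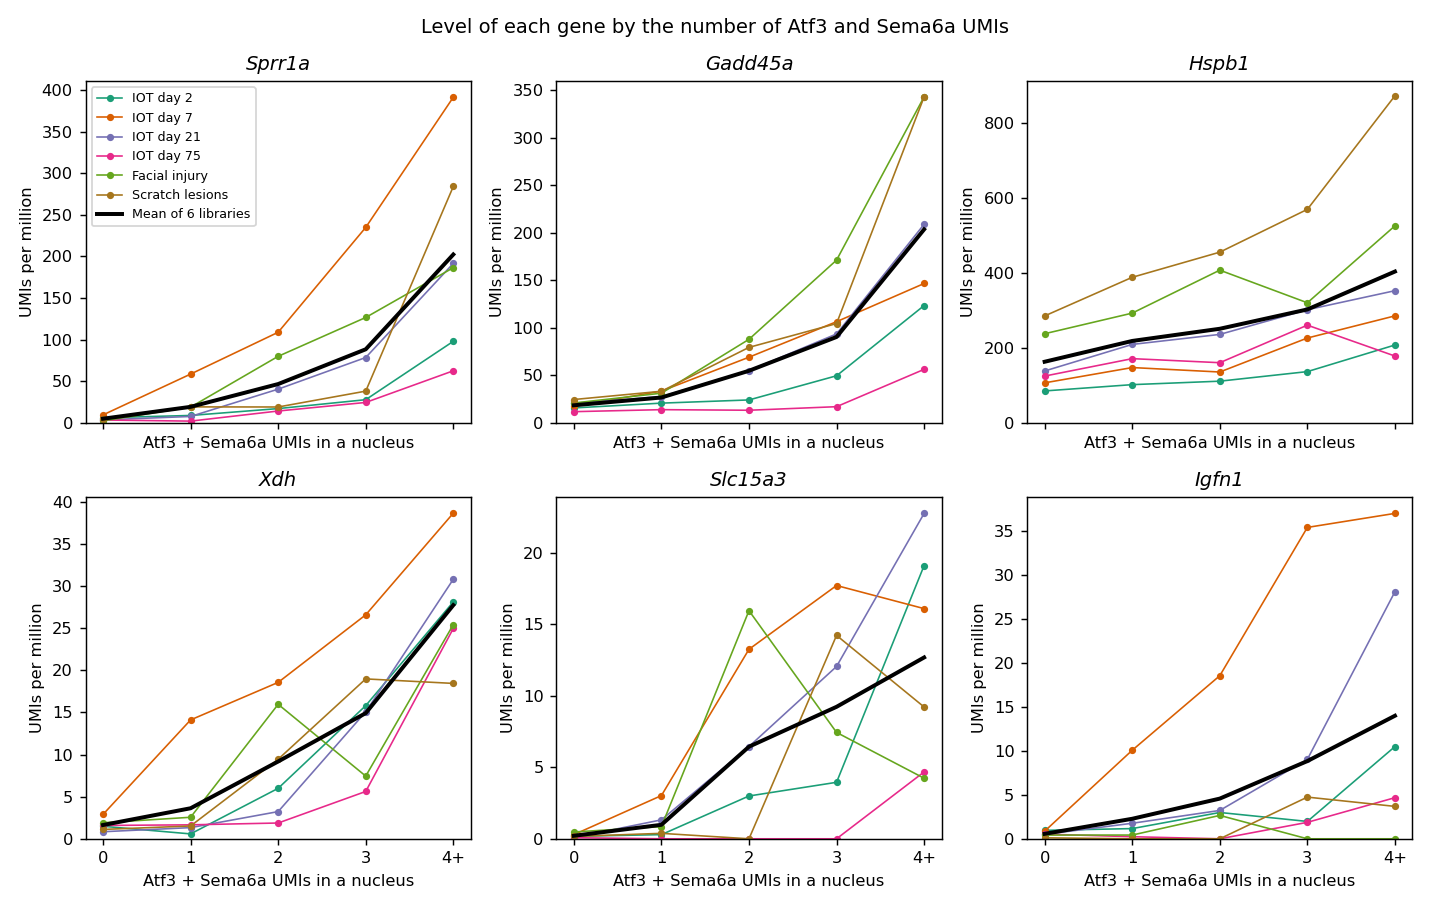
Level of each gene in CPM against the number of Atf3 and Sema6a UMIs in a nucleus, with a thin line for each of the 6 injury libraries and a thick black line for their mean. The mean is higher at each step for every one of the genes, and single libraries depart from it where counts are few, as for Slc15a3 and Igfn1.

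Marked nuclei often held more than 1 of the 6 genes, and the UMIs of these genes were counted at equal depth. The mark itself was set at full depth, so it is reached more easily in deeper nuclei and libraries. The part of this in the shares was not tested. After thinning each nucleus to 1000 UMIs, at least 2 of the 6 genes were detected in 1.66% of marked nuclei at day 75, 6.90% at day 2, 9.84% at day 21, 10.6% at day 7, 11.5% after facial injury and 11.9% with scratch lesions. In unmarked nuclei the same share was 0.0659% to 0.558%. Marked nuclei of the uninjured controls were not at 0, with 1.79% of 112 on 10x, which lists 3 of the genes, and 7.14% of 42 on Drop-seq, which lists 5. Without thinning the shares in marked nuclei were 20.2% to 39.3%. Among thinned marked nuclei, Gadd45a was detected in 24.1% ± 5.7 of those with Sprr1a and in 11.3% ± 3.0 of those without it (mean and SD of 5 libraries with at least 20 nuclei of each kind). Hspb1 was detected in 34.8% ± 7.6 of marked nuclei with Sprr1a and in 20.8% ± 8.9 of those without, higher in 5 of 5 libraries. Xdh was detected in 3.52% ± 1.60 of thinned marked nuclei with Gadd45a and in 2.13% ± 1.19 of those without, higher in 5 of 5 libraries but resting on 9 nuclei with both genes. For Xdh split by Sprr1a or Hspb1, and for Slc15a3 and Igfn1 split by any of the 3 more abundant genes, the direction was mixed over libraries at this depth. These shares are a description, since the genes were chosen for their level in marked nuclei.

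**Figure D3:**
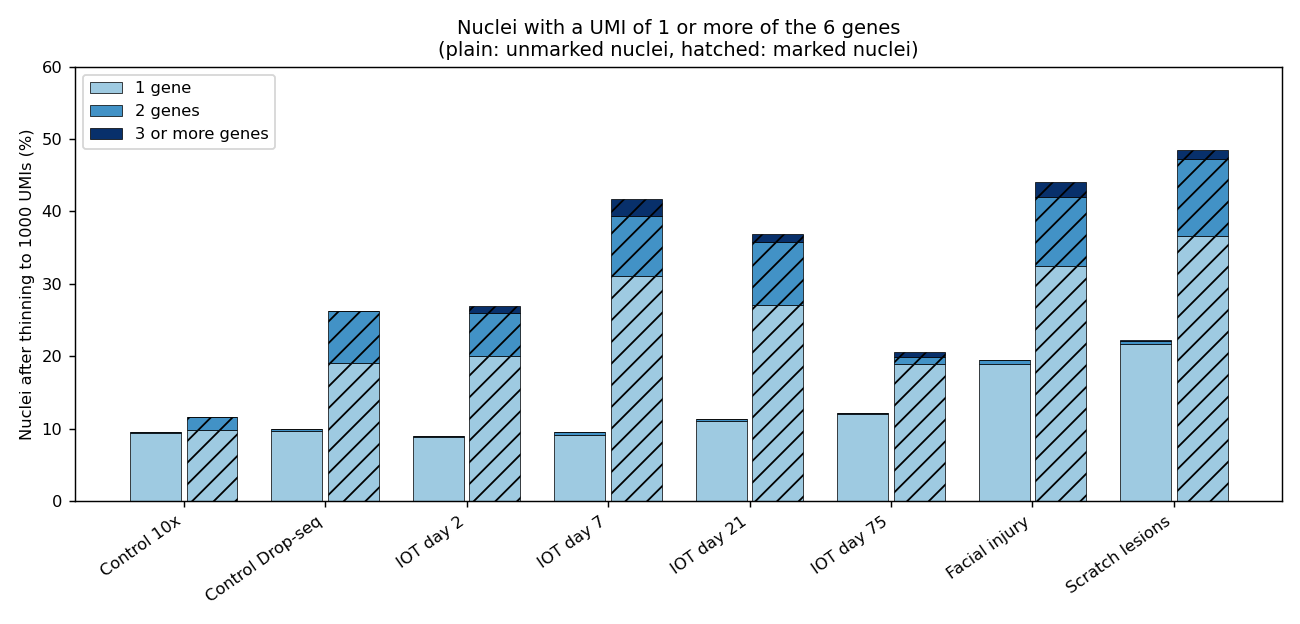
Share of nuclei with a UMI of 1, 2 or at least 3 of the 6 genes after thinning to 1000 UMIs, for unmarked (plain bars) and marked nuclei (hatched bars) of each table. The share with at least 2 of the genes lies between 1.66% at IOT day 75 and 11.9% with scratch lesions in marked nuclei of the injury libraries, and at or below 0.558% in unmarked nuclei. In marked nuclei of the controls it is 1.79% on 10x and 7.14% on Drop-seq, whose bars rest on the 3 and 5 genes listed there.

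Whether the marked nuclei change with time after transection was asked with a slope on the log2 of the day over the 4 IOT libraries, 1 library a day. In marked nuclei the slopes were −0.39 ± 0.26 (SE) for Sprr1a, −0.28 ± 0.18 for Gadd45a, −0.27 ± 0.13 for Xdh, −0.43 ± 0.22 for Slc15a3, −0.37 ± 0.30 for Igfn1 and 0.02 ± 0.12 for Hspb1, in log2 units for each doubling of the day. None passed in edgeR's quasi-likelihood test (Benjamini-Hochberg adjusted p from 0.907 to 0.999), as none of the 12276 genes tested did (0%, with 707 at an unadjusted p under 0.05 and 55 called by DESeq2). The levels did not move one way: Sprr1a in marked nuclei went from 69.9 CPM at day 2 to 275 CPM at day 7 and 30.3 CPM at day 75, and Igfn1 from 7.67 to 31.1 and 1.78 CPM. Without the day 2 library the slope was −0.97 for Sprr1a (adjusted p 0.00537) and −1.16 for Igfn1 (adjusted p 0.0146), both past the threshold of edgeR's quasi-likelihood test. In that fit 117 of 11449 genes passed, and it rests on 1 library a day at days 7, 21 and 75. Without the day 75 library the slopes turned positive for Sprr1a (0.22), Gadd45a (0.13), Slc15a3 (0.02) and Igfn1 (0.30). Atf3 was found in 27.8% of the marked nuclei at day 75, against 54.7%, 69.8% and 58.2% at days 2, 7 and 21. In nuclei marked by Atf3 alone, which leaves out those with Sema6a only, day 75 still held 41.3 CPM of Sprr1a, 38.3 CPM of Gadd45a and 16.1 CPM of Xdh. How far the make-up of the marked nuclei enters the slopes was not tested. In unmarked nuclei no slope passed for the 5 genes tested, as for all 16608 genes (0% called by edgeR, 573 at an unadjusted p under 0.05, 32 called by DESeq2).

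Nerve transection was compared with the 2 minor injuries by testing whether the difference between marked and unmarked nuclei itself differed between them. The difference of minor injury minus IOT was 0.92 ± 0.44 (SE, log2) for Sprr1a, 0.64 ± 0.31 for Gadd45a, −0.00 ± 0.17 for Hspb1 and −0.14 ± 0.51 for Xdh. None of the 4 genes passed in edgeR's quasi-likelihood test (adjusted p 0.945, 0.948, 0.9996 and 0.9996), and 2 of 14301 genes did (0.0140%, with 760 at an unadjusted p under 0.05, and 10 called by DESeq2). The minor injury side rests on 2 libraries, facial injury at day 2 and scratch lesions with no day given. The IOT side covers days 2 to 75, and the part of time in the difference was not tested. With each library left out the difference ran from 0.58 to 1.36 for Sprr1a and from 0.35 to 0.76 for Gadd45a. Without IOT day 75 it was 0.67 and 0.35. Slc15a3 and Igfn1 were under the count filter. Their marked levels were 10.7 and 6.24 CPM for Slc15a3 and 1.34 and 2.34 CPM for Igfn1 after facial injury and with scratch lesions, against 13.4 and 7.67 CPM at IOT day 2. Gadd45a and Hspb1 reached their highest marked levels in the 2 minor injury libraries, and Sprr1a and Igfn1 reached theirs at IOT day 7.

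Neuron classes were assigned to each nucleus from marker genes, such as Trpm8 for cold sensing, Mrgprd for non-peptidergic nociceptors, and S100b and Nefh for large-diameter neurons, and 55.9% to 61.6% of the nuclei of a table were given a class by a scoring rule set after seeing the data. Each class is a range of a marker score rather than a type, and 11.2% to 14.8% of nuclei lay within 0.1 of its limit. The sodium channel gene Scn10a, a nociceptor gene outside the markers, was at 875 CPM in small classes and 89.3 CPM in large classes of the 10x control. Among unmarked nuclei, Hspb1 was higher and Gadd45a lower in large classes than in small ones. Hspb1 was at 207 CPM ± 79.7 in large classes and 117 CPM ± 62.3 in small classes (mean and SD of n = 7 10x libraries), higher in large classes in 7 of 7 libraries. The difference of small against large was −0.86 ± 0.09 (SE, log2; adjusted p 9.59e-08, edgeR with library as a block). Gadd45a was at 15.9 CPM ± 3.79 in large and 20.6 CPM ± 5.42 in small classes, a difference of 0.35 ± 0.10 (adjusted p 0.00543, edgeR with library as a block), higher in small classes in 7 of 7 libraries. Of the 13097 genes tested, 53.5% passed, 25.5% higher and 28.0% lower in small classes, so that a difference between these classes is common. Without the library block, when the spread between libraries enters the error, neither gene passed (adjusted p 0.0512 for Hspb1 and 0.221 for Gadd45a).

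By class, unmarked Hspb1 ran from 76.5 CPM ± 47.3 in Mrgprd non-peptidergic and 82.7 CPM ± 48.5 in cold sensing nuclei, over 135 to 140 CPM in the Nppb itch, Cadps2 mechanoreceptor, Mrgpra3 itch and peptidergic nuclei and 167 CPM ± 78.9 in low-threshold C fibers, to 244 CPM ± 82.5 in other large diameter neurons (mean and SD of 7 libraries). Neighbours in this order lie within their spread over libraries. That spread includes shifts between libraries that the classes share. It does not tell how neighbours differ within a library, which was not tested. Gadd45a was highest in Mrgprd nuclei, at 25.3 CPM ± 6.55, and lowest in Cadps2 mechanoreceptors, at 11.3 CPM ± 3.48. Sprr1a in unmarked nuclei was at 2.04 to 7.30 CPM in all 8 classes, from 16 to 31 UMIs a class over 6 libraries. In the 6 injury libraries, which all list it, its small against large difference was 0.62 ± 0.30 (log2, adjusted p 0.0992 in edgeR, a comparison added after seeing the data).

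**Figure D4:**
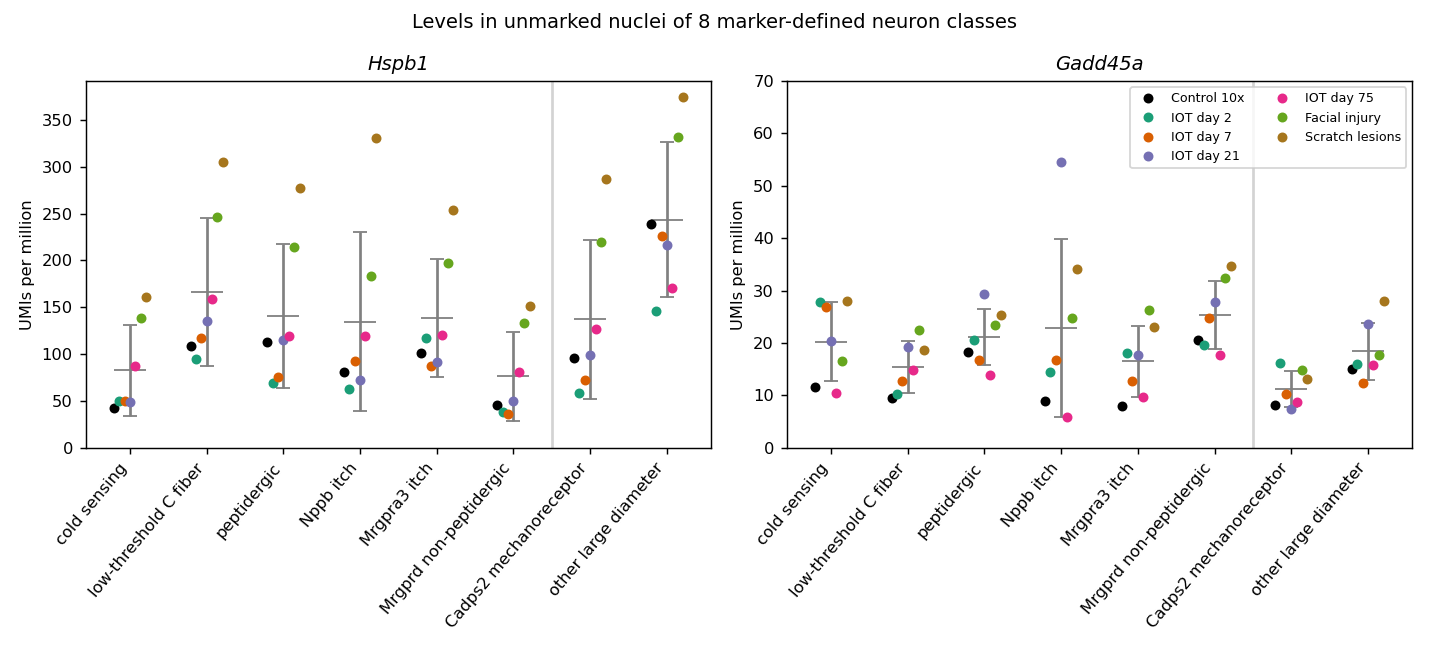
Level of Hspb1 and Gadd45a in unmarked nuclei of 8 neuron classes, in CPM, with a colored point for each of the 7 10x libraries and grey bars for the mean and SD. The grey vertical line parts the 6 small classes from the 2 large ones, and Hspb1 has its highest mean in other large diameter neurons, with the scratch lesion and facial injury points at the top of each class.

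Class markers can be lost in damaged neurons, so marked nuclei were split instead by genes that the study took as kept after injury: large-type (Pcdh7, Piezo2, Ntng1, Map2 and Fat3) and small-type (Tshz2, Rgs4 and Cacna1c). Sprr1a was higher in small-type than in large-type marked nuclei. Large-type nuclei held 56.1, 250, 103, 30.9, 34.6 and 26.5 CPM of Sprr1a at IOT days 2, 7, 21 and 75, after facial injury and with scratch lesions, and small-type nuclei held 105, 351, 162, 30.4, 268 and 266 CPM. Small-type nuclei were thus higher in 5 of 6 libraries and level with large-type nuclei at day 75, and the gap was widest in the minor injury libraries, where the large-type nuclei had only 16 and 18 UMIs. The difference was 1.22 ± 0.29 (SE, log2; adjusted p 0.00344, edgeR with library as a block), against 10.5% of 8312 genes higher and 11.5% lower in small-type nuclei (22.0% in all). It stayed between 0.83 and 1.45 with each library left out (adjusted p from 0.00237 to 0.0166). The call was lost with DESeq2 (adjusted p 0.0725), without the library block (0.372), and when nuclei were marked by 1 UMI of either gene (0.0648), by Atf3 alone (0.101) or by Sema6a alone (0.0600), each with the same direction. The mark also took in nuclei of uninjured mice, 2.56% in the 10x control, of which 5.36% held Atf3. Marked nuclei were 2.32% after facial injury and 4.10% with scratch lesions, of which 49.8% and 55.1% held Atf3. How many large-type marked nuclei are uninjured neurons with Sema6a was not tested.

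Gadd45a had a small-type against large-type difference of 0.37 ± 0.15 in edgeR (adjusted p 0.0974), with 274 against 131 CPM in scratch lesions and 130 against 130 CPM at day 21. Hspb1 had a difference of 0.06 ± 0.13 (adjusted p 0.814 in edgeR) and Xdh of 0.29 ± 0.28 (adjusted p 0.544 in edgeR). The small against large difference of Hspb1 was −0.86 in unmarked nuclei and 0.06 in marked nuclei. Different genes define the classes in the 2 groups, and the change was not tested. Split by the class markers used for unmarked nuclei, marked nuclei held 346 CPM ± 198 of Hspb1 in large classes. In small classes they held 265 CPM ± 139 (mean and SD of 7 libraries, the uninjured control among them). By these markers the mean was thus higher in large classes in marked nuclei too. The gap lies within the spread over libraries and was not tested. Slc15a3 and Igfn1 were under the count filter, and Slc15a3 was at 17.7 against 12.4 CPM in small-type against large-type nuclei at day 2. Igfn1 had 33 UMIs in large-type nuclei (38.3 CPM) and 1 UMI in small-type nuclei (4.13 CPM) at day 7, while at day 21 it was at 13.9 CPM in both kinds.

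**Figure D5:**
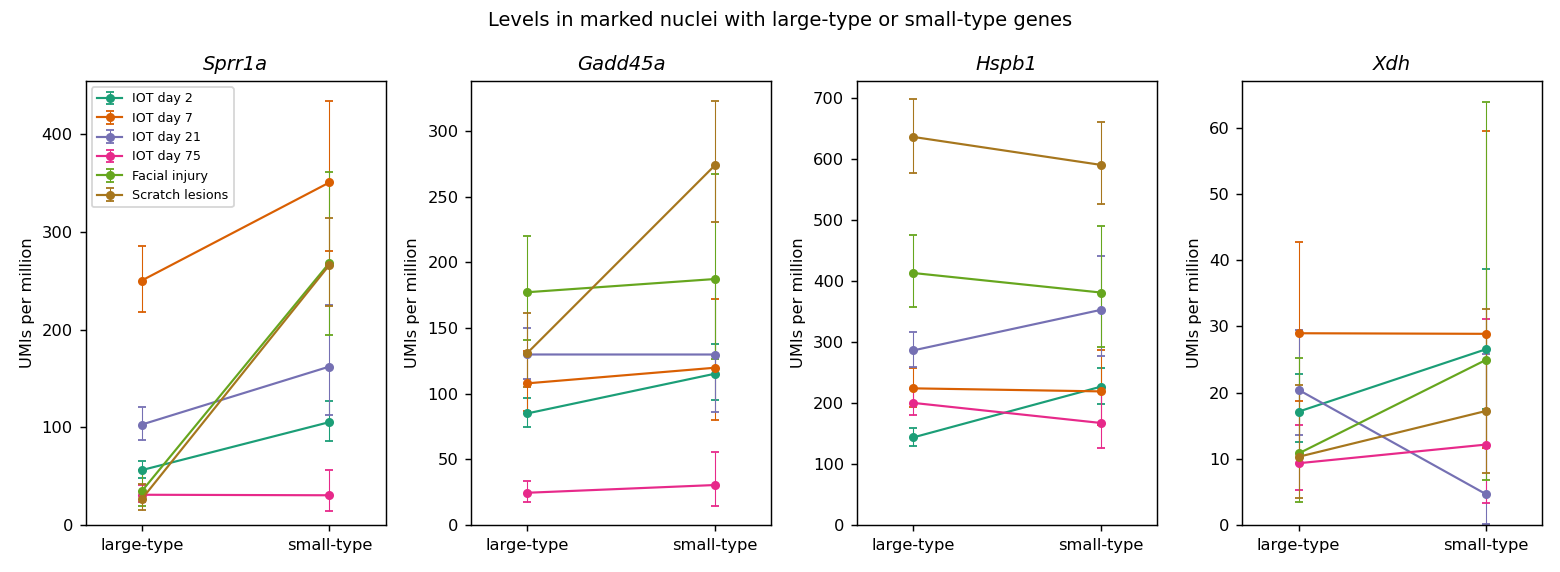
Level of 4 genes in marked nuclei with large-type or small-type genes, in CPM, with a line for each of the 6 injury libraries and exact Poisson 95% intervals. Sprr1a is higher in small-type nuclei in 5 of 6 libraries, and the lines of Hspb1 and Xdh cross.

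The related genes of each pathway, from lists drawn up with earlier results of these data known, were counted in the marked against unmarked fit, where 9.94% of all genes were higher, 7.85% lower and 17.8% called in all. A rise or fall and its adjusted p are those of the 4 IOT libraries. The CPM values and counts of libraries given beside them cover all 6 injury libraries. The called genes of the heat shock (3 of 32), stress kinase (2 of 19), purine (3 of 17) and Slc15 (2 of 10) lists lay near or under that share. Of 28 DNA damage and p53 target genes tested, 6 rose, 1 fell and 21 did not pass, with a median of 0.15 against −0.00 for all genes (log2). Cdkn1a, which encodes the cell cycle inhibitor p21, rose by 1.38 ± 0.28, with 10.9 to 37.2 CPM in unmarked and 16.5 to 169 CPM in marked nuclei, higher in 5 of 6 libraries (adjusted p 0.00378 in edgeR). Gadd45g, a sister gene of Gadd45a, rose by 1.01 ± 0.19, Phlda3, a p53 target that restrains Akt, by 0.92 ± 0.19, and Ddb2, a DNA damage recognition factor, by 0.87 ± 0.18 (adjusted p 0.00199, 0.00466 and 0.00424 in edgeR). Pmaip1 and Btg2, under 10 CPM, also rose, and Polk, a translesion polymerase gene, fell, all 3 named after their values were seen (Polk −0.65 ± 0.18, adjusted p 0.0194 in edgeR and 0.0821 in DESeq2). Of 19 stress kinase pathway genes tested, Jun rose by 1.06 ± 0.11 and the phosphatase gene Dusp1 by 1.01 ± 0.14, and the other 17 did not pass (adjusted p 1.73e-05 and 0.000213 in edgeR).

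Of 32 other heat shock and chaperone genes tested, 1 rose and 2 fell, and the median was 0.00. The rise was Hspb6 (0.98 ± 0.32, adjusted p 0.0476 in edgeR and 0.113 in DESeq2, 4.20 CPM on average, named after its value was seen). Dnaja1, an Hsp40 cochaperone, fell by 0.30 on the log2 scale (SE 0.09, adjusted p 0.0374 in edgeR and 0.116 in DESeq2), and Bag2, a cochaperone of Hsp70, fell by 0.97 (SE 0.25, adjusted p 0.0158 in edgeR). In the comparison of small and large classes, 3 heat shock genes were higher and 12 lower in small classes of 32 tested, where 25.5% of all genes were higher and 28.0% lower.

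Of 34 genes of the epidermal differentiation complex, where Sprr1a lies, 9 were tested, all of them S100 genes, of which 3 rose and 3 fell. S100a11 rose by 1.58 ± 0.22 and S100a10, which helps deliver sodium and other channels to the membrane, by 0.82 ± 0.12 (adjusted p 0.000231 and 0.000319 in edgeR), and S100a6, a calcium-binding protein gene, fell by 0.74 (SE 0.13, adjusted p 0.00108 in edgeR). S100a3 rose and S100a4 and S100a7a fell, all under 10 CPM and named after their values were seen. Of 17 purine degradation and molybdenum cofactor genes, Mocs2, needed to make the cofactor of xanthine dehydrogenase, rose by 0.67 ± 0.12, Gda, the guanine deaminase, by 0.58 ± 0.11, and Ampd2, an AMP deaminase, fell by 0.51 (SE 0.16, adjusted p 0.0376 in edgeR and 0.0587 in DESeq2). Mocs2 was higher in marked nuclei in 6 of 6 injury libraries and Gda in 5 of 6. Of 10 Slc15 and endolysosomal genes none rose, and the peptide transporter gene Slc15a2 (−0.62 ± 0.19, adjusted p 0.0387 in edgeR and 0.0815 in DESeq2) and the lysosomal amino acid transporter gene Slc36a1 (−0.58 ± 0.12, adjusted p 0.00327 in edgeR) fell. Slc15a2 was still higher in marked nuclei in 2 of 6 injury libraries, and Slc36a1 in 0 of 6. Of 12 muscle immunoglobulin and fibronectin genes 3 were tested, and Flnc and Ttn rose by 2.14 ± 0.41 and 0.97 ± 0.26, both under 10 CPM and named after their values were seen (Ttn had an adjusted p of 0.0541 in DESeq2).

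The 3 genes whose levels followed each member most closely over the marked and unmarked sums of the tables that list it were found among 9867 genes, as a description over sums that share libraries. For Sprr1a these were Stmn4, a microtubule-regulating stathmin gene, Sez6l and Ttc39c (Pearson r of log2 levels 0.955, 0.955 and 0.953, 14 sums). Gadd45a was closest to Sez6l (0.954), Rhoq (0.949) and Srxn1, an antioxidant enzyme gene (0.937, 16 sums), and Hspb1 to Cltb, Eif1b and Eif4ebp1 (0.902, 0.893 and 0.892, 16 sums). Xdh was closest to Ecel1, the damage-induced peptidase gene (0.954), Phlda1 (0.939) and Daglb (0.929, 16 sums). Slc15a3 was closest to the cholesterol exporter gene Abca1 (0.953), the integrin gene Itga7 (0.945) and Gm9866 (0.944, 14 sums), and Igfn1 to Man1a, Mapk6 and Ubn1 (0.960, 0.959 and 0.956, 12 sums). Among the members themselves r ran from 0.221 for Hspb1 and Igfn1 (12 sums) to 0.944 for Xdh and Slc15a3 (14 sums). The members were chosen for a higher level in marked nuclei, and marked and unmarked sums both enter r. A high r among them, or with another gene higher in marked nuclei, thus follows in part from the choice. Every other gene named here was also called higher in marked nuclei of the IOT libraries, so r is no evidence of shared regulation.

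Markers of other cells were summed beside these levels, since Sprr1a is known from skin and Igfn1 from muscle. The keratinocyte markers (5 genes, at least 2 listed in a table) summed to 5.35 to 30.4 CPM in marked and 8.37 to 27.1 CPM in unmarked nuclei of the 6 injury libraries, higher in marked nuclei in 1 of 6, with Trp63 at 0 in marked nuclei of 3 libraries. The skeletal muscle markers (5 genes, Ttn among them) summed to 4.90 to 20.6 CPM in marked and 5.45 to 10.6 CPM in unmarked nuclei, higher in marked nuclei in 5 of 6, with Myh2 at 0 in marked nuclei of 4 libraries. Satellite glia markers (5 genes) were higher in marked nuclei in 6 of 6 libraries, at 405 to 1068 CPM against 301 to 920 CPM, and leukocyte markers (5 genes) in 5 of 6, at 8.25 to 33.0 CPM against 7.66 to 16.3 CPM. Fibroblast markers were higher in marked nuclei in 4 of 6, vascular markers in 4 of 6, Schwann markers in 2 of 6 and red cell markers in 1 of 6. The mitochondrial share of UMIs was 0.0938% to 0.429% in marked and 0.0804% to 0.327% in unmarked nuclei of the 6 injury libraries, higher in marked nuclei in 5 of 6, and it was also higher in marked nuclei of both controls. The part of RNA quality and of muscle, glial or leukocyte RNA in the levels of the 6 genes was not tested.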

How the data were processed

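Per the submitters' processing notes and the methods, the authors used Seurat 2, Cell Ranger 2.1.0 with STAR 2.5.3a, and bcl2fastq 2.17, aligned reads to mm10 with introns counted, and removed non-neuronal clusters before they deposited the tables. The deposited values are raw UMI counts per gene and nucleus. How the authors treated doublets was not used here, no doublet caller was run, and 21 pairs of 10x tables share 16 to 92 cell barcodes.

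The 6 genes and the gene lists were chosen with earlier results of these data known. Counts were summed over marked or unmarked nuclei of each library. Levels have exact Poisson and shares Clopper-Pearson 95% intervals, ratios an exact conditional interval, and a count of 0 a limit of 3 counts. For shares, nuclei were thinned to 1000 UMIs (seed 11), leaving out shallower nuclei. Class markers were scored as a mean z of at least 0.5 with a lead of 0.25 over the next class. Sums were tested across all genes with edgeR 4.0.16 (quasi-likelihood, TMM, filterByExpr, Benjamini-Hochberg, threshold 0.05) in R 4.3.3, after tests on simulated data. The library was a block in all fits but the time courses, which had only a slope on the day. With the block, p-values measure only how far the difference within a library varies over these libraries, and not the spread of levels between them. In the time courses they measure only the spread of these libraries around the slope. Named from each list were up to 4 genes past the threshold with at least 10 CPM and the largest change, and for each member the 3 genes with the highest Pearson r of log2(CPM + 1), from genes reaching 20 CPM. Alternatives were DESeq2 1.42.0, no TMM, no filter, other marks, no block and each library left out. Python 3.11.15, numpy 2.4.6, pandas 2.3.3, scipy 1.17.1 and matplotlib 3.10.9 were used.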

Additional observations from a re-analysis of the deposited data

How the results depend on the processing

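Of the 48 alternative values for the IOT against minor injury difference of the members, 10 changed sign and no gene passed under any. The number of genes called in marked against unmarked nuclei (2544) was 266 without the library block and 1433 to 3050 with each library left out, lowest without IOT day 2. The count for IOT against minor injury (2) was 10 with DESeq2, 8 without TMM, 9 without the filter, 33 with Atf3 alone, 0 with at least 1 UMI or with Sema6a alone, and 0 to 33 with each library left out, highest without day 75. The time course in marked nuclei (0) gave 55 with DESeq2 and 0 to 117 with each library left out (117 without day 2, 32 without day 21), and in unmarked nuclei (0) it gave 32 with DESeq2 and 0 to 106 (106 without day 21). Small against large classes (7004) gave 2917 without the block. Small-type against large-type (1830) gave 4184 with at least 1 UMI, 3756 with Sema6a alone and 535 without the block. The mean share of marked nuclei with at least 2 of the genes was 8.74% after thinning and 33.1% without. Of the 42 alternative mean ratios over the IOT libraries, 7 moved by more than the spread between libraries. Beside those named for Sprr1a and Slc15a3 these were Hspb1 with Sema6a alone (0.66 against 0.97) and Xdh with at least 1 UMI (2.69) or Sema6a alone (2.70, against 3.55).

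The IOT against minor injury difference changed sign for Gadd45a with Sema6a alone (−0.0216) and for Hspb1 with DESeq2 (0.0207) and without TMM (0.0614), and with each library left out it ran from −0.19 to 0.15 for Hspb1 and −0.45 to 0.12 for Xdh. The slope in marked nuclei with each library left out ran from −0.97 to 0.22 for Sprr1a, −0.67 to 0.13 for Gadd45a, −0.12 to 0.20 for Hspb1, −0.93 to 0.0188 for Slc15a3 and −1.16 to 0.30 for Igfn1, and was −0.00500 for Hspb1 with Atf3 alone. The slope of Gadd45a in unmarked nuclei ran from −0.15 to 0.10. The small-type difference of Hspb1 was −0.0185 without the filter, −0.17 with at least 1 UMI, −0.16 with Atf3 alone, −0.13 with Sema6a alone and −0.0689 to 0.13 with each library left out, and that of Xdh was −0.28 with Atf3 alone. The cause of these changes was not tested.

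Sums from the same library were fitted with the library as a block, and the counts without it are given above. No paired analysis was possible between conditions by replicate number because each injury condition is 1 library and the numbers tie no libraries together. Slc15a3 and Igfn1 have few UMIs, and depth limits what can be said of them in unmarked nuclei.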

Other observations

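In the uninjured controls, Hspb1 was higher in marked than in unmarked nuclei (235 against 123 CPM on 10x, 250 against 96.0 CPM on Drop-seq). The marked control nuclei also held more Nefm, a large-neuron gene (1017 against 502 CPM on 10x, 9848 against 5179 CPM on Drop-seq), and less Scn10a (180 against 574 CPM and 115 against 599 CPM), and Hspb1 was higher in large classes, so the groups differ in class and the part of class in the Hspb1 level was not tested. Gadd45a was at 20.8 against 11.4 CPM on 10x (ratio 1.82, counting interval 0.975 to 3.14), and at 57.4 against 26.7 CPM on Drop-seq (2.15, 1.05 to 3.93). On 10x the Gadd45a ratio depended on the mark, at 4.03 (2.05 to 7.19) with Atf3 alone and 0.954 (0.626 to 1.41) with Sema6a alone. In the Drop-seq control, 7 of 42 marked nuclei held at least 2 of the 5 genes listed.

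Most nuclei with a Sprr1a UMI were marked at IOT days 2, 7 and 21 (65.4%, 61.4% and 66.9%), while 42.7% were marked at day 75, 37.9% after facial injury and 33.3% with scratch lesions. The highest Sprr1a count in a nucleus was 38 UMIs with scratch lesions, 24 at day 2 and 22 at day 7. At IOT day 7, 16 of 434 marked nuclei held at least 4 of the 6 genes and 1 nucleus held all 6. At day 21 it was 21 of 366 marked nuclei, and at day 75 it was 4 of 302.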
